A study of Arabidopsis thaliana with 6 samples.

Results

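Cytochromes P450 are heme enzymes that mostly add oxygen to small molecules. The Arabidopsis P450s described here are the probe sets of the Affymetrix ATH1 array that carry 1 annotated gene with a symbol built from CYP, a family number, subfamily letters and a gene number. The rule found 22 of 22746 probe sets, each for a different gene, among 13356 genes with a probe set of their own. Of these, 18 belong to family CYP71, all in subfamily CYP71B, and the others are CYP51G2, CYP78A9, CYP79A2 and CYP84A4. The TAIR10.1 reference gene table holds 225 genes with such a symbol in 40 families. The members are 9.78% of them, and the other 203 were not analysed here. The annotation used does not list 8730 of the 22746 probe sets, so a gene not named on the array may still have one. Another 15 P450 genes carry the CYP name only as a synonym, among them those of brassinosteroid and flavonoid synthesis, and 0 of them had a probe set listed with 1 gene.

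The 6 arrays hold RNA of pollinated flowers at stages 14 to 15 from plants of the Ler accession, 3 biological replicates from pop2-1 homozygous mutants and 3 from wild type. POP2 is the GABA transaminase gene, whose product degrades the amino acid GABA (γ-aminobutyric acid), and per the series' design text the mutant flowers hold high levels of endogenous GABA. The stated growth conditions, 21 °C with a 16 h photoperiod, come from a field that repeats the mutant's wording for the wild-type samples. Values are MAS5 signals, which are hybridisation intensities on a linear scale, and the number of arrays limits their precision. Every pop2-1 sample carries the same mutant allele, no other allele was profiled, and a level of POP2 was not analysed here.

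Most plant P450s sit in the membrane of the endoplasmic reticulum and receive electrons from NADPH through a P450 reductase. The family number and the subfamily letter reflect the similarity of the proteins. Members of CYP71, a large family in flowering plants, act mainly in specialised metabolism, for example in the synthesis of camalexin and of oxidised monoterpenols, and many CYP71B genes lie side by side as tandem copies. For CYP71B22, CYP71B23, CYP71B26, CYP71B28, CYP71B34 and CYP71B38, no role is stated here because none is certain.

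Before the P450s, the arrays themselves were compared. Medians over all probe sets lay between 209.3 and 228.9. Spearman correlations across tested transcripts, which are not independent replicates, ran from 0.928 to 0.96 within pop2-1 and from 0.979 to 0.982 within wild type. The array of pop2-1 replicate 2 stood apart, where the actin 3'/5' ratio, a measure of RNA or labelling quality, was 9.73, against 1.72 to 2.93 on the other 5. Of the markers listed for the flower, the pollen gene AT5G45880, of the LAT52 type, had a mean signal of 8915 in pop2-1 and 8227 in wild type, and the nectary exporter SWEET9 one of 7117 in pop2-1 and 7147 in wild type. In the nectary and scent list the scent gene BSMT1 rose (627 in pop2-1, 157 in wild type) and the terpene synthase gene TPS24 did not pass (2370 in pop2-1, 1802 in wild type). The pistil and ovule genes INO and ALC did not pass, with INO at 314 in pop2-1 and 255 in wild type and ALC at 678 in pop2-1 and 791 in wild type. No gene of the petal and stamen list was named in the annotation used, so those organs could not be checked. Of the 3 named young seed markers, BAN fell, with a mean of 56.2 in pop2-1 and 394 in wild type. AGL62 (20.9 in pop2-1, 26.7 in wild type) and IKU2 (4.37 in pop2-1, 5.3 in wild type) were too dim to test, so the summed signal, at 61.2 to 92.1 in pop2-1 flowers against 265 to 530 in wild-type flowers, follows BAN. The summed signal of the 5 named pollen markers, 7613 to 12188 in pop2-1 flowers against 7920 to 10060 in wild-type flowers, is mostly that of AT5G45880. Of the 4 pollen markers tested 0 passed, and their median log2 difference was 0.46, with MGH3 at 0.53, ANX2 at 0.49, ACT12 at 0.43 and AT5G45880, listed as LAT52, at 0.10.

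Among the 22 members the brightest was CYP71B31, an enzyme that oxidises the monoterpenol linalool in Arabidopsis flowers. Its signals were 4353, 2829 and 3738 in pop2-1 and 4571, 3953 and 4383 in wild type (replicates 1, 2 and 3). Its mean over the 6 arrays, 3971, lay at the 97.1st percentile of all probe sets. The next, CYP71B38, CYP71B6, CYP71B23 and CYP71B28, had means of 594, 565, 548 and 436. Probe sets differ in how well their probes bind, so this order is one of signals and not of transcript amounts.

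**Figure D1:**
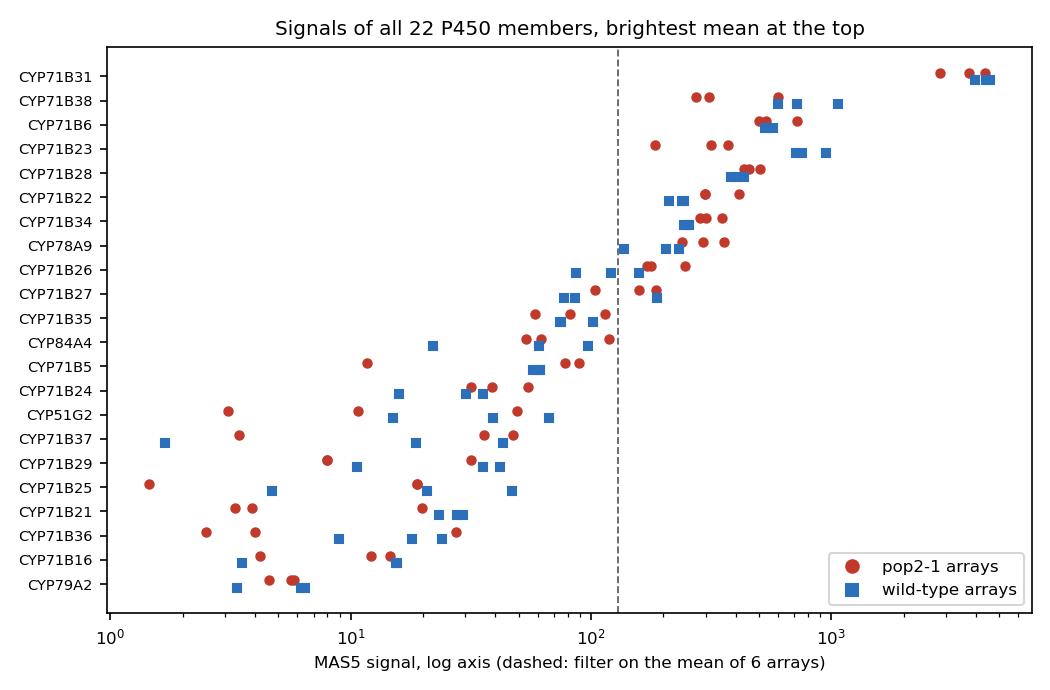
MAS5 signals (log axis) of all 22 P450 members, one row per gene, with pop2-1 arrays as red circles and wild-type arrays as blue squares and the filter at a mean of 130 as a dashed line. CYP71B31 stands alone at a mean of 3971, 9 more members lie above the filter, and 12 lie below it.

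Probe sets with a mean over all 6 arrays at or under a signal of 130, the 40th percentile, were not tested, which removed 12 of the 22 P450s. CYP71B27 was the dimmest member kept, with a mean of 134, and CYP71B35 the brightest member left out, with one of 84.2. CYP71B26 and CYP71B27 passed the filter with wild-type means of 122 and 117, under 130, and pop2-1 means of 199 and 150. The 10 tested members were 9 of the 18 CYP71B genes and CYP78A9. The fit was limma on log2(signal + 16) over all 13647 probe sets that passed the filter, with Benjamini-Hochberg adjustment over all of them. Rises and falls are stated only for an adjusted p under 0.05. Differences are pop2-1 minus wild type, and those of dim transcripts are understated by the added 16.

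Of the 10 tested P450s, 1 fell in pop2-1, 0 rose and 9 did not pass. Among all tested probe sets 0.462% passed, 0.147% higher and 0.315% lower. The P450 that fell was CYP71B23. With the replicate number as a block, 2 of the 10 fell, CYP71B23 and CYP71B38, in a fit where 1.90% of all probe sets passed and 1.10% were lower. In whole flowers, fewer cells of a type and less RNA per cell cannot be told apart.

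CYP71B23 (AT3G26210) had signals of 372, 185 and 316 in pop2-1 and 713, 758 and 946 in wild type. All pop2-1 arrays lay below all wild-type arrays, with the nearest of them at 372 in pop2-1 and 713 in wild type. The mean was 291 ± 95.8 in pop2-1 flowers, against 806 ± 124 in wild-type flowers (SD, n = 3 each). That is a 2.76-fold fall (log2 -1.46, 95% interval -1.98 to -0.94, limma adjusted p = 0.0369). A larger log2 difference, in either direction, was found for 0.234% of all tested probe sets. The lowest of its signals came from pop2-1 replicate 2, the array with the high 3'/5' ratio. Without that array, where 0.359% of all probe sets were called lower, the difference was -1.18 (limma adjusted p = 0.0105). With the log2 3'/5' ratio as a covariate, where 0.696% were called lower, it was -1.19 (limma adjusted p = 0.00355).

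The call on CYP71B23 depended on which array was left out. It passed without pop2-1 replicate 1, where 2.40% of all probe sets were called lower (log2 -1.66, limma adjusted p = 0.00547). It also passed without pop2-1 replicate 2. It did not pass without pop2-1 replicate 3 (limma adjusted p = 0.174) or without wild-type replicate 1, 2 or 3 (0.149, 0.119 and 0.22), although the difference then lay between -1.55 and -1.34. In the same order, these fits called 5, 15, 5 and 8 of all 13647 tested probe sets, against 63 with all 6 arrays. The seed coat gene BAN, whose product acts in proanthocyanidin synthesis, moved in the same direction, averaging 56.2 ± 14.0 in pop2-1 flowers and 394 ± 144 in wild-type flowers (SD, n = 3 each). BAN is also a flavonoid gene, and the part of seed tissue in the difference of CYP71B23 was not tested.

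CYP71B38 (AT3G44250), the other P450 of CYP71B with a difference beyond 1 log2 unit, had signals of 598, 274 and 309 in pop2-1 and 1068, 598 and 717 in wild type. The groups met without overlapping: the highest pop2-1 array and the lowest wild-type array both rounded to 598. Means were 394 ± 178 in pop2-1 flowers and 794 ± 244 in wild-type flowers (SD, n = 3 each), a log2 difference of -1.02 (95% interval -1.68 to -0.37) that did not pass (limma adjusted p = 0.21).

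Replicate number 1 was the brightest array in both groups for CYP71B38 and number 2 the dimmest in both. With the block, CYP71B38 fell (limma adjusted p = 0.00838), since its SE was 0.13 in place of 0.29. Within the same-numbered pairs the log2 difference was -0.82, -1.08 and -1.17. CYP71B23 had -0.91, -1.94 and -1.53 in the same pairs, and its adjusted p with the block was 0.00881. Without pop2-1 replicate 1, where 3.86% of all probe sets passed and 2.40% were lower, CYP71B38 was also called (log2 -1.36, limma adjusted p = 0.0117). Without pop2-1 replicate 2 its difference was -0.82 (limma adjusted p = 0.312).

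**Figure D2:**
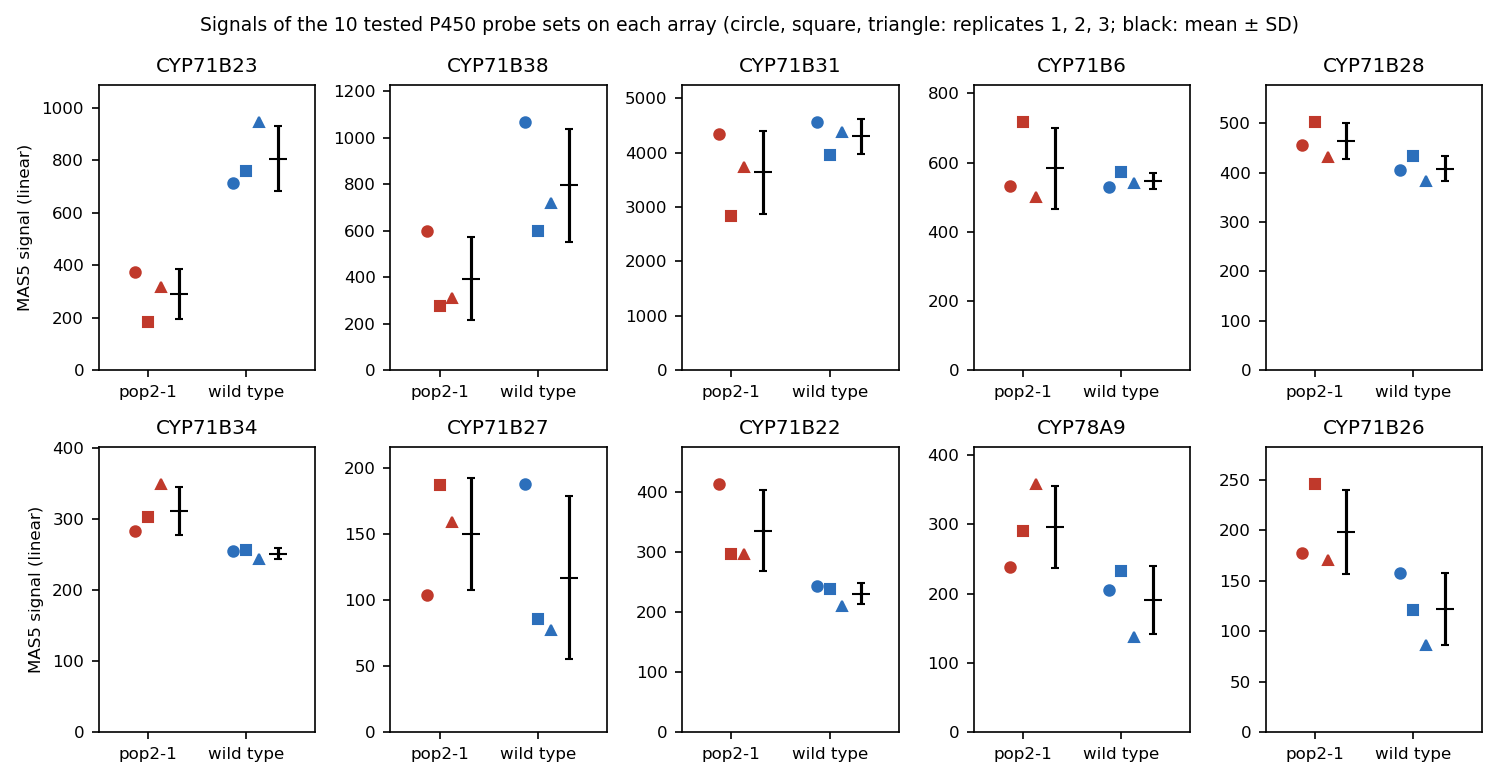
MAS5 signals (linear axis from 0) of the 10 tested P450 members on each array, pop2-1 in red and wild type in blue, with the mean ± SD in black. CYP71B23 shows a gap between pop2-1 (185 to 372) and wild type (713 to 946), while the groups of CYP71B38 meet at 598.

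CYP71B31 was lower in pop2-1 by less than its spread allowed to call. It averaged 3640 ± 767 in pop2-1 flowers and 4302 ± 317 in wild-type flowers (SD, n = 3 each), a log2 difference of -0.26 (95% interval -0.60 to 0.08, limma adjusted p = 0.525). The groups overlapped, and the lowest signal, 2829, was again that of pop2-1 replicate 2, without which the difference was -0.09. Over the 10 tested members, replicate 2 was the lowest pop2-1 array in 3 and the highest in 4. For replicate 1 these counts were 3 and 4, and for replicate 3 they were 4 and 2. The 3 members in which replicate 2 was lowest, CYP71B23, CYP71B31 and CYP71B38, are those lower in pop2-1. Without that array CYP71B23 differed by -1.18 in place of -1.46 and CYP71B38 by -0.82 in place of -1.02. The interval of CYP71B31 does not reach a 2-fold fall. Of 7 genes listed for floral and leaf terpenoid oxidation, CYP71B31 was the only one named on the array.

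CYP78A9 is a P450 of the CYP78A group, which promotes the growth of floral organs and fruit. Its signals were 239, 291 and 358 in pop2-1 and 205, 232 and 137 in wild type, without overlap between the groups. The log2 difference was 0.60 (95% interval 0.11 to 1.09, limma adjusted p = 0.327), and within the same-numbered pairs it was 0.21, 0.31 and 1.29. It passed in a fit with array weights, in which 7.12% of all probe sets passed and 3.50% were higher (limma adjusted p = 0.0297). Of the 6 CYP78A genes listed, it was the only one named on the array.

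CYP71B6 converts indole-3-acetonitrile, a product of indole metabolism that glucosinolate breakdown also yields. It differed by 0.08 (95% interval -0.26 to 0.41, limma adjusted p = 0.863), with signals of 533, 718 and 500 in pop2-1 and 528, 572 and 541 in wild type. The sign rested on the highest pop2-1 array, replicate 2, without which the difference was -0.08. The other gene of the glucosinolate and camalexin list named on the array was CYP79A2, which makes phenylacetaldoxime from phenylalanine for benzyl glucosinolate. CYP79A2 had signals of 3.37 to 6.45 on all 6 arrays and was not tested.

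Higher values in pop2-1 were found for CYP71B26, CYP71B22 and CYP71B34, and none passed. CYP71B26 had signals of 178, 246 and 171 in pop2-1 and 158, 121 and 86.5 in wild type (log2 0.66, 95% interval 0.12 to 1.19, limma adjusted p = 0.327). CYP71B22 had 414, 298 and 297 in pop2-1 and 244, 239 and 211 in wild type (log2 0.50, 95% interval 0.13 to 0.87, limma adjusted p = 0.286). In both genes every pop2-1 array lay above every wild-type array. CYP71B34 had 283, 302 and 349 in pop2-1 and 255, 256 and 243 in wild type, again without overlap, and a smaller difference of 0.29 (95% interval -0.02 to 0.60, limma adjusted p = 0.45).

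CYP71B28 and CYP71B27 showed overlapping groups. CYP71B28 varied little within groups, with signals of 455, 503 and 432 in pop2-1 and 406, 434 and 383 in wild type (log2 0.18, 95% interval -0.10 to 0.45). CYP71B27, annotated as a transcribed pseudogene, had 104, 187 and 159 in pop2-1 and 188, 86.1 and 77.3 in wild type. Its same-numbered pairs went different ways, at -0.76, 0.99 and 0.91, and its interval ran from -0.36 to 1.12.

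**Figure D3:**
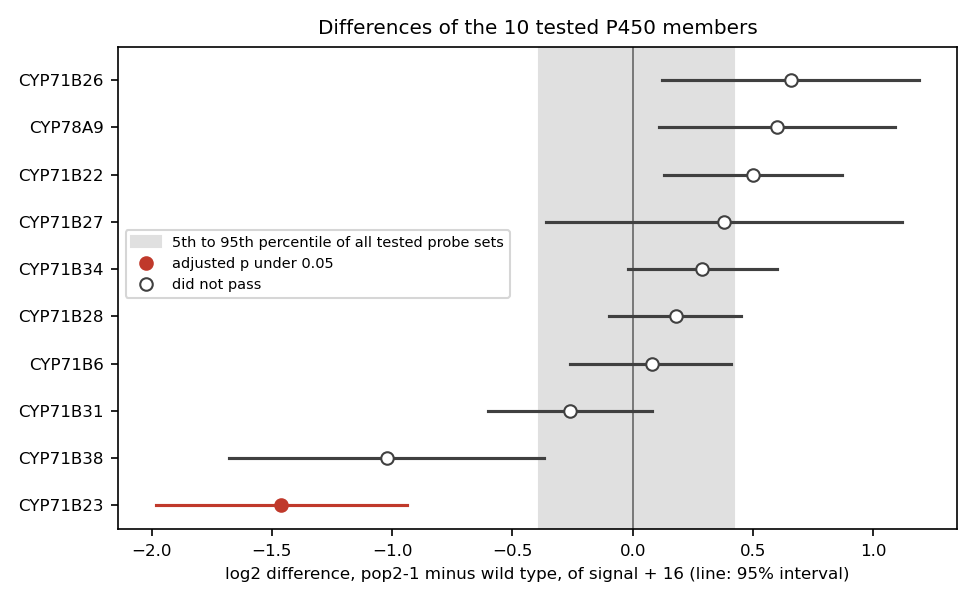
Log2 differences (pop2-1 minus wild type, on signal + 16) of the 10 tested P450 members with 95% intervals, over a grey band from the 5th to the 95th percentile of all tested probe sets (-0.39 to 0.42). CYP71B23, in red, is the 1 member that passed, and CYP71B38, CYP71B22, CYP78A9 and CYP71B26 also lie outside the band.

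As a set, the 10 tested members had log2 differences from -1.46 to 0.66, with a median of 0.23 where that of all tested probe sets was 0.03. Pop2-1 was higher in 7 of them and lower in 3, and it was higher in 55.4% of all tested probe sets. Among the 7 are CYP71B26 and CYP71B27, whose wild-type means lay under the filter, so these counts depend in part on it. The sign of the median follows the filter: it was 0.00 over all 22 members and -0.26 over the 5 members above the 60th percentile. In size, without the sign, the median difference was 0.44 for the tested P450s and 0.15 for all tested probe sets. These were not matched for signal. Apart from CYP71B31, the tested P450s had mean signals between the 40.5th and 74.1st percentiles of all probe sets. An unadjusted limma p under 0.05 was found for 5 of the 10, CYP71B23 and CYP71B38 lower and CYP71B22, CYP71B26 and CYP78A9 higher, and for 11.9% of all tested probe sets, 6.45% higher and 5.46% lower. The groups did not overlap in 6 of the 10, with pop2-1 above in 4 and below in 2, against 17.9% of all tested probe sets, 9.88% above and 8.06% below. These members share a gene family and 6 arrays, so the counts describe them and carry no test.

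Among families, only CYP71 had more than 1 member. Its 9 tested genes had a median log2 difference of 0.18, with 6 higher and 3 lower in pop2-1, 1 called and a range as wide as that of all 10. Outside CYP71 the 1 tested member was CYP78A9, so a contrast of CYP71 with other families rests on 1 gene. For 5 of the 9 tested members that did not pass, the 95% interval lay within 1 log2 unit of 0. The coefficient of variation was larger between pop2-1 arrays than between wild-type arrays in 7 of the 10, running from 7.82% to 45.1% for pop2-1 arrays and from 2.98% to 52.5% for wild-type ones.

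The order of genes in the reference table shows how the members lie to one another. In it, 16 of the 22 members fall into 3 runs of P450 genes, where a run allows up to 7 other genes between neighbours. The longest holds 19 P450 genes from CYP86C2 to CYP71B37, of which 11 are members and 4 were tested. CYP71B22 (AT3G26200) and CYP71B23 (AT3G26210) are direct neighbours there, with no gene between them, and CYP71B26 (AT3G26290) and CYP71B34 (AT3G26300) lie further along. In this run CYP71B23 fell, and the other 3 tested genes had higher means in pop2-1 and did not pass. In a fit with no filter, the dim members of the run went both ways and none passed. They ranged from -0.83 (CYP71B21) to 0.43 (CYP71B24). CYP71B38 lies outside the 3 runs.

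Within this run the log2 ratio of CYP71B23 to CYP71B22, CYP71B26 and CYP71B34, none of which passed, was taken on each array. Against CYP71B22 the ratio was -0.15, -0.64 and 0.08 in pop2-1 and 1.49, 1.60 and 2.08 in wild type, a difference of -1.96. Against CYP71B26 it was 1.00, -0.38 and 0.83 in pop2-1 and 2.07, 2.50 and 3.23 in wild type, a difference of -2.12. Against CYP71B34 it differed by -1.75. The groups do not overlap in any of the 3 ratios, which follows from the signals of the 4 genes, whose own groups do not overlap, so the ratios are a description and were not tested. All 22 probe set names have the plain suffix that marks a set designed to match 1 transcript, but binding of tandem copies to one another's probes was not tested.

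**Figure D4:**
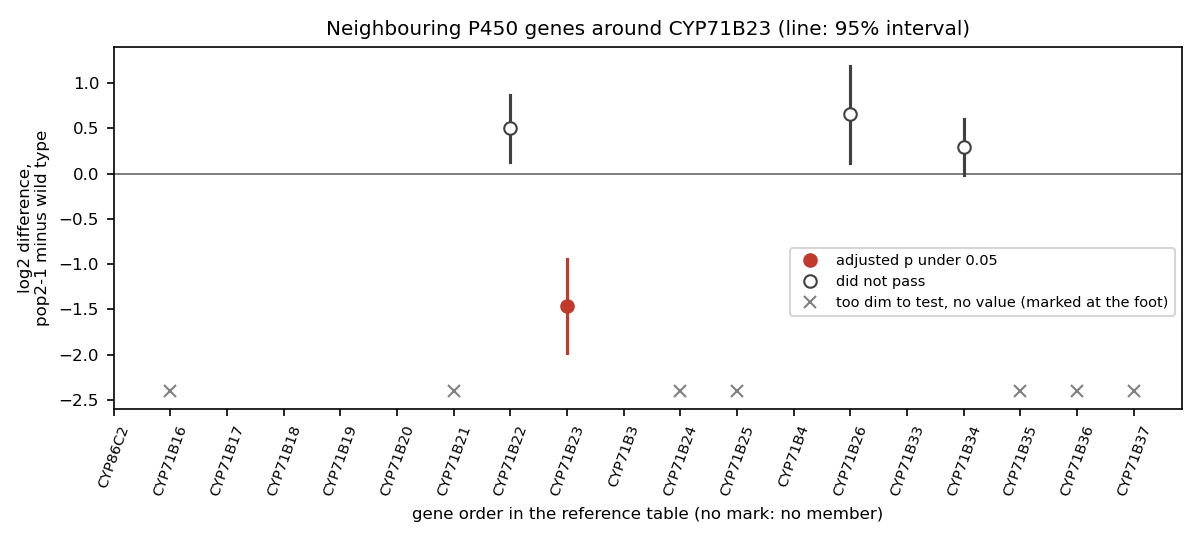
Log2 differences (pop2-1 minus wild type) with 95% intervals along the run of 19 neighbouring P450 genes, in the gene order of the reference table, with crosses at the foot for members too dim to test. CYP71B23 lies at -1.46 between higher values of CYP71B22 (0.50) and, further along, CYP71B26 (0.66) and CYP71B34 (0.29). None of these higher values passed.

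In the run that starts with CYP71B27, CYP71B28 lies 2 places on and CYP71B29 follows it directly. Of these CYP71B29 was too dim, and the tested pair differed by 0.38 and 0.18. CYP71B31 shares the third run with CYP71B5, whose signals were 89.5, 11.7 and 77.6 in pop2-1 and 61.2, 61.3 and 57.2 in wild type. One pop2-1 array, replicate 2, was far below the other 5 there.

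The 12 dim members had signals from 1.45 to 119, and no detection calls were used, so it is not known which of them lay above background. They were CYP51G2, a copy of the sterol demethylase gene annotated as a transcribed pseudogene, CYP79A2, CYP84A4, which acts in arabidopyrone synthesis, and 9 CYP71B genes. CYP84A4 had signals of 53.8, 62.1 and 119 in pop2-1 and 21.9, 97.3 and 61.0 in wild type, overlapping widely. In a fit with no filter, 42 of all 22746 probe sets passed and 0 of the 22 members did. CYP71B21, which precedes CYP71B22 in the run, was the 1 of 12 dim members whose groups did not overlap. Among all tested probe sets 17.9% did not overlap, and the share among dim ones was not counted. CYP71B21 had signals of 19.8, 3.87 and 3.31 in pop2-1 and 29.3, 27.6 and 23.2 in wild type (log2 -0.83, limma adjusted p = 0.416 with no filter).

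Genes listed as partners of P450s were looked up as well, 48 in 5 lists, of which 6 were named on the array. HEMA2, a glutamyl-tRNA reductase gene at the start of the tetrapyrrole pathway that leads to heme, had signals of 303, 238 and 213 in pop2-1 and 167, 111 and 125 in wild type, without overlap (log2 0.83, limma adjusted p = 0.14). Of the 9 genes listed as electron donors 1 was named, the diflavin reductase gene ATR3, at 0.03 (limma adjusted p = 0.977). Whether ATR3 passes electrons to P450s was not tested. In the glucosinolate list BCAT4, an aminotransferase of methionine chain elongation, had 135, 322 and 281 in pop2-1 and 69.3, 89.8 and 96.7 in wild type. Its log2 difference of 1.30 did not pass (limma adjusted p = 0.125), and UGT74B1, the glucosyltransferase of the core pathway, differed by -0.15. Both named genes of the phenylpropanoid and flavonoid list, DFR and BAN, fell, and 0 of the brassinosteroid genes were named.

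**Figure D5:**
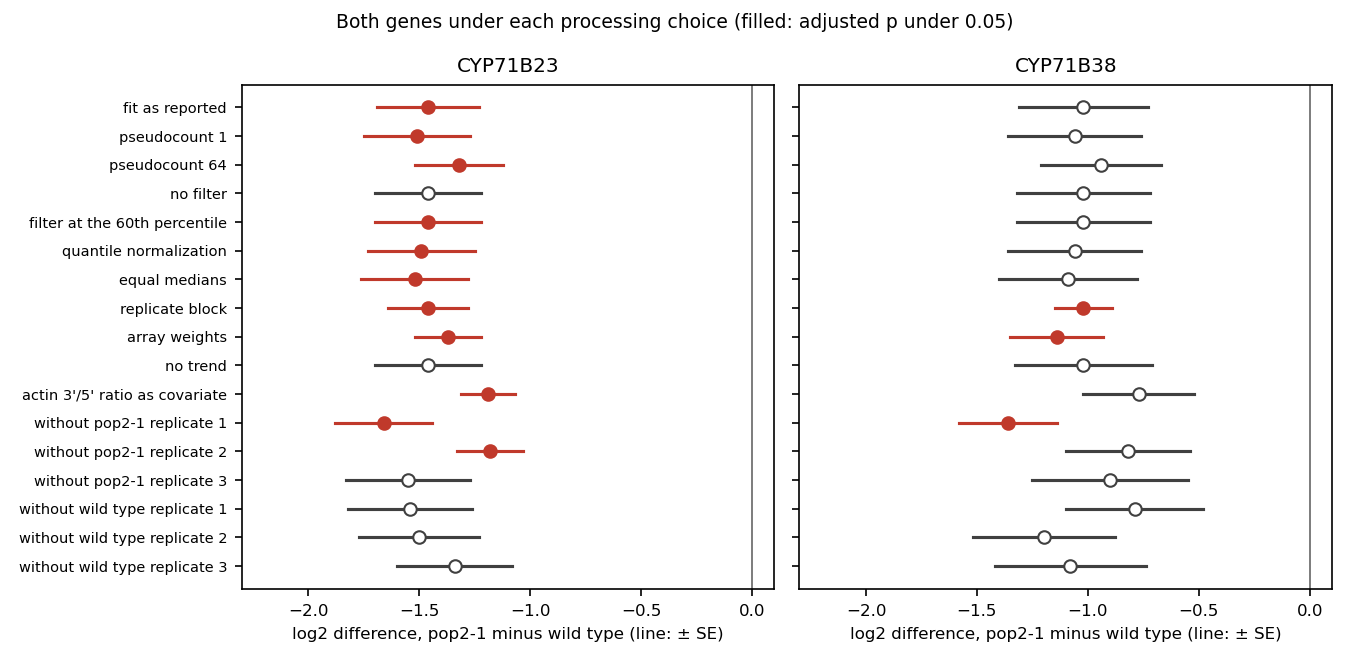
Log2 differences (pop2-1 minus wild type, ± SE) of CYP71B23 and CYP71B38 under each processing choice, filled in red where the adjusted p is under 0.05. CYP71B23 lies between -1.66 and -1.18 and CYP71B38 between -1.36 and -0.77, and both stay below 0 under each choice shown.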

How the data were processed

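RNA of 6 flower samples was measured on ATH1 arrays, and groups and replicate numbers came from the sample titles. The deposited intensity values are MAS5 signals, per the submitters' processing notes, scaled so that the 2% trimmed mean is 500.04 on each array. The scaling hides any change in total RNA. The MAS5 version is not given in the sources used here, and detection calls were not used.

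Genes were named from the platform annotation, updated through the Entrez gene number to TAIR10.1, which matched all 22 members. The 64 controls were left out. Of 22746 probe sets, 13513 list 1 gene and 503 several, 2 of these with a P450. The other 8730 are not listed in the annotation used, and P450s among them would not have been found. No coordinates are given because no build accompanies the signals.

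Log2(signal + 16) was fitted with limma 3.58.1 in R 4.3.3 (lmFit, eBayes with trend, 2-sided) over 13647 probe sets. Errors are SDs over 3 arrays or limma's 95% intervals. Deviations of same-numbered arrays correlated at 0.208, 0.418 and 0.172, each over 0.1, so the titles' numbers were treated as possible pairs. Correlations between differently numbered arrays were not computed, so these values cannot show that the numbers pair arrays. The unpaired fit stays the main one, with blocked values beside it where a call changes. No label states what a number shares.

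Named were all members that passed, CYP71B23, CYP71B38, the 10 largest differences each way, the 10 brightest and up to 4 genes per list. Other genes were named after their values were seen. Members and lists were chosen with earlier results of these data known. Of 15 role lists 5 held a member, covering 6 genes.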

Additional observations from a re-analysis of the deposited data

How the results depend on the processing

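The 3'/5' covariate was chosen after seeing the data, and the other alternatives were planned. Where a value moved, the cause was not tested unless fewer arrays or other probe sets entered. Of 155 refits of single members, 142 kept direction and call, most of them for members that stayed uncalled. CYP71B23 kept its call in 10 of its 16 refits. CYP71B38 gained a call in 3 of 16 and CYP78A9 in 1 of 15. CYP71B6 turned negative in 3: -0.07 with array weights, -0.06 with the covariate and -0.08 without pop2-1 replicate 2, with -0.08 to 0.17 over the fits that leave out 1 array. The P450 count of 1 became 2 with the replicate block, 3 with array weights, 0 with no filter and 0 without the variance trend, where CYP71B23 had limma adjusted p = 0.0703 and 0.0569. Leaving out 1 array gave 0 to 2 P450s and 5 to 527 probe sets, against 63. Over all probe sets, the block gave 259 calls, array weights 972, the covariate 157 and the 60th percentile filter 41. The fit with no filter gave 42 and the fit without the variance trend 48. The median over P450s was 0.00 with no filter (22 members) and -0.26 at the 60th percentile (5 members), and over CYP71 -0.03 and -0.26. With 3 arrays per group the 95% intervals of tested members reached 0.28 to 0.74 log2 units either side. Differences beyond these, such as -1.02 for CYP71B38, could still miss the threshold after adjustment over all probe sets. The 12 dim members were not tested.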
